A study of Mus musculus with 6 samples.

Results

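The introns described here are the very long introns of mouse embryonic stem cells, those over 20 kb. They were chosen by length and by being listed: an intron, taken once per chromosome, strand, start and end, had to be listed in the junction tables of all 4 total RNA libraries and to exceed 20000 nt. This gave 1233 of 68322 introns (1.80%), in 927 of 9954 genes. Of 1695 introns over 20 kb listed in any library, 462 were not listed in all 4 and were left out. The libraries came from E14 mouse embryonic stem cells (129/Ola background), an established line, kept in serum with LIF and transfected with a control siRNA or with an siRNA against Son; RNA was taken 24 hours later. Short reads of rRNA-depleted total RNA cover 2 control and 2 Son knockdown samples, and Nanopore cDNA long reads cover 1 sample of each kind. All 6 samples come from this line and differ in the siRNA. The labels used here name neither the siRNA sequences nor whether the replicates were separate cultures, so the p-values below measure the spread between these samples, which may be technical.

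Most of a mammalian gene is intron, and the longest introns are removed by the same spliceosome that removes short ones: U1 small nuclear RNP pairs with the 5′ splice site, U2 and its partners bind the branch point and the 3′ splice site, and the exons are joined. While RNA polymerase II crosses a very long intron, its 5′ end exists as RNA long before its 3′ end has been made. Such introns are usually recognised through the short exons that flank them, and genes of adhesion, cytoskeleton, signalling and transcription are rich in them. SON is a large protein of nuclear speckles with serine- and arginine-rich repeats, known to help the splicing of introns with weak splice sites.

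For each intron the tables give reads that cross a junction split (spliced RNA, aligned exon to exon) and unsplit (unspliced RNA, running from exon into intron), at the 5′ junction and at the 3′ junction. Splicing efficiency is the split share of the reads at both junctions. The 4 libraries held 10556187 to 16012286 split and 696201 to 971880 unsplit reads at 5′ junctions, of which the introns over 20 kb held 99518 to 151614 and 10189 to 13302. Son itself, which has no intron over 20 kb in the tables, had CPM values of spliced reads (counts scaled to library size) of 281 and 312 in control samples against 94.6 and 102 after knockdown, a log2 change of -1.61 (SE 0.0869, adjusted p = 3.72e-10, edgeR). The pluripotency markers checked were listed for 16 of 16 genes at 5290 to 5630 CPM summed, in every library. Fibroblast markers were listed for 2 of 10 genes (Thy1 and Fbn1, 10.6 to 11.7 CPM). Primitive endoderm markers were listed for 2 of 9 (Gata4 and Sox7, 2.9 to 3.84 CPM). Mesoderm or neural markers were listed for 4 of 9 (Eomes, Pax6, Nes and Tubb3). The summed level of these 4 was 77.6 CPM for control replicate 1 and 74.7 CPM for control replicate 2. Knockdown replicate 1 had 90.0 CPM and knockdown replicate 2 had 87.3 CPM. Col1a1, Gata6, Sox17 and T were among the markers not listed. The part of these marker levels in the results was not tested.

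The members ran from 20004 to 186913 nt, with a median of 28909 nt against 1134 nt over all listed introns. There were 204 over 50 kb and 26 over 100 kb. No listed intron contained another listed one. Most host genes had a single member (713 genes), 210 had at least 2, and the formin gene Diaph2 had 8, between 20485 and 76952 nt. Lrba, a scaffold of vesicle transport, had 7, and Diaph3, Exoc4, Faf1, Snx29, Tenm4 and Wdr7 had 5 each. By the deposited intron numbers, 36.3% of the members were the first intron of every listed transcript that uses them, against 6.27% of the shorter introns. Of the 1220 members placed in the GENCODE M21 gene models, 188 (15.4%) lay in a 5′ untranslated region, against 2.47% of the shorter introns, and 958 lay between coding exons.

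The exon sequences that these introns keep apart are what splicing has to join, and a selection is printed to show both sides of the gap. Each line gives the 20 bases on either side of the exon-exon junction from GENCODE M21 transcripts, 5′ to 3′ on the coding strand, with the last 2 bases of the upstream exon and the first base of the downstream exon in capitals. The intron itself is not printed, since no genome of the tables' build was used here. The first group holds the 3 longest members between coding exons, the next group holds 3 of the best covered members, and the last holds introns that came closest to a call or were called in split reads, picked after their values were seen, and introns with wide gaps in level between the groups.
Arl15 intron 4: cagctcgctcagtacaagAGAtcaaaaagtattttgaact
Fmnl2 intron 1: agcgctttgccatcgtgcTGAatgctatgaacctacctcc
Gpc3 intron 2: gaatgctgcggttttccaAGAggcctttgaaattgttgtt
Eif3h intron 1: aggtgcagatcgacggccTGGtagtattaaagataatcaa
Psmb7 intron 5: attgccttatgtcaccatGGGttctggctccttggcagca
Sae1 intron 6: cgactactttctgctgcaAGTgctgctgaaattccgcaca
Ptprk intron 6: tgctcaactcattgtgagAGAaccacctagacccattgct
Pkp4 intron 3: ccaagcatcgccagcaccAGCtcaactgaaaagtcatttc
Hspg2 intron 1: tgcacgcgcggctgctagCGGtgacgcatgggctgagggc
Wwp2 intron 4: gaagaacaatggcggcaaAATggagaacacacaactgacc
Hsf2bp intron 6: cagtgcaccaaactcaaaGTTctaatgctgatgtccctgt
Fam13c intron 4: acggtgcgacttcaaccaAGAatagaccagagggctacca
Nck2 intron 3: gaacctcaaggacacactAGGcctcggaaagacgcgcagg
Dennd1a intron 10: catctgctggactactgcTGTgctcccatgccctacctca
Fam193a intron 1: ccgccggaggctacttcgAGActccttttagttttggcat
Immp1l intron 5: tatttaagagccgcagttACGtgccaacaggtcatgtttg
An upstream exon ending in AG (the Arl15, Sae1, Ptprk and Pkp4 lines are examples) was found for 56.2% of the members and 57.5% of the shorter introns, and a downstream exon starting with G for 47.8% and 49.1%. The last 50 nt of the upstream exon were 55.0% GC in the members and 50.4% in the shorter introns. Members that are first introns had 64.5% there, shorter first introns 61.1%, and members that are never a first intron 49.1%, next to 49.5% for shorter ones of that kind.

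The question put to these introns was whether they were removed less completely when Son was knocked down. No fall was detectable for the set as a whole. Their mean splicing efficiency was 0.902 and 0.893 in control replicates 1 and 2, and 0.903 and 0.891 in knockdown replicates 1 and 2. The groups overlapped: the means were 0.898 ± 0.00602 in the controls and 0.897 ± 0.00834 in the knockdown (SD, n = 2), a difference of -0.00089 (exact two-sided permutation test, p = 1.0, where 2 against 2 samples cannot go below 0.333). The sign of this difference hung on single libraries: it was 0.00337 without control replicate 1, -0.00515 without control replicate 2, -0.00679 without knockdown replicate 1 and 0.00501 without knockdown replicate 2. In both groups replicate 2, the library with fewer reads, had the lower value, and the part of depth in this was not tested. Introns of up to 20000 nt had 0.903 and 0.893 in the controls, against 0.8925 and 0.875 in the knockdown, so that both knockdown libraries lay below both controls.

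**Figure D1:**
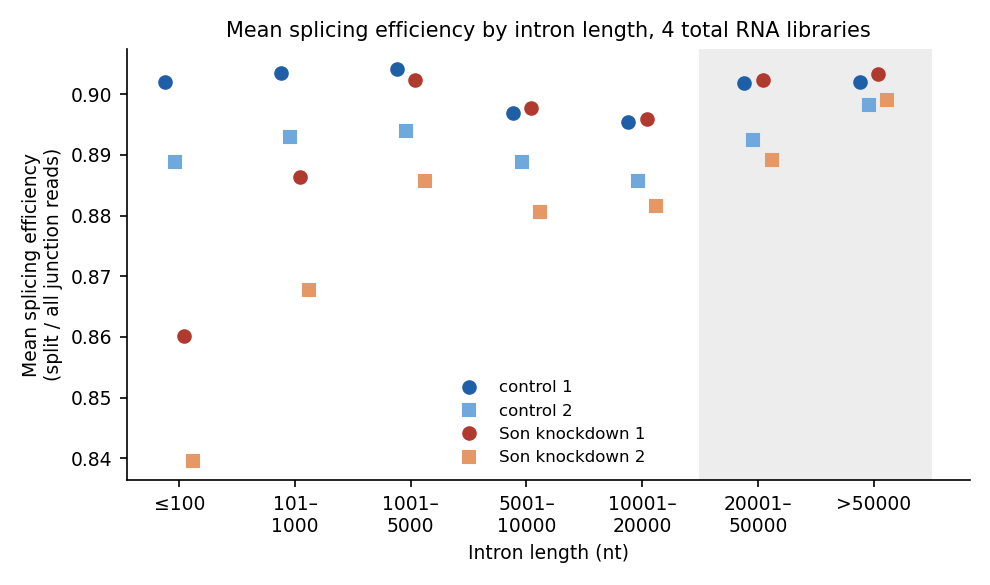
Mean splicing efficiency (split reads over all junction reads, y axis) of introns in 7 length classes (x axis, nt) in each of the 4 total RNA libraries, with 1 point per library and the introns over 20 kb shaded. In the shaded classes control and knockdown points are interleaved, between 0.889 and 0.903, and the groups also overlap in the classes from 1 to 20 kb. For introns of up to 100 nt the knockdown points (0.860 and 0.840) lie below the controls (0.902 and 0.889), and the groups are also apart at 100 to 1000 nt.

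Measured within each library, the members stood at the shorter introns' level in the controls, differing from it by -0.00119 and 0.000637, and above it in the knockdown, by 0.0101 and 0.0159. The change in this difference was 0.0133 and the groups did not overlap (exact two-sided permutation p = 0.333, the smallest possible). The size of that difference depended on what the members were set against. Against introns of 10 to 20 kb it was 0.000922 and the groups overlapped (0.00646 and 0.00762 against 0.0067 and 0.00922). Against introns of 1 to 20 kb it was 0.0039 and the groups did not overlap (-0.000959 and 0.000417 against 0.00127 and 0.00599). Set against the other introns of their own genes, 8867 introns in 864 genes, the members moved from -0.000726 and -0.000285 in the controls to 0.00311 and 0.00542 in the knockdown, a change of 0.00477 with groups that did not overlap (exact p = 0.333). With the median in place of the mean that change was 0.00347 and the groups overlapped. The introns of 19 to 20 kb just below the length limit (n = 105) had 0.881 and 0.872 in the controls, against 0.885 and 0.873 in the knockdown, and those of 20 to 21 kb just above it (n = 86) had 0.901 and 0.882 against 0.894 and 0.8905.

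Intron by intron, 0 of 1068 tested members were called in either direction by the edgeR quasi-likelihood test of unsplit against split reads (Benjamini-Hochberg adjusted over all introns, threshold 0.05), where 1.76% of all 63309 tested introns were called. Of all tested introns 1.71% were called as fewer spliced and 0.0442% as more spliced. At an unadjusted p under 0.05 there were 23 members with a lower and 23 with a higher spliced share, 4.31% of the members against 9.72% of all introns. DESeq2 also called 0 members, and of all 63309 introns it called only 275 as fewer and 2 as more spliced. That even split depended on the scaling: with split and unsplit reads scaled separately it was 15 with a lower and 42 with a higher spliced share, and 2 members (Ptprk and Raly) were called as more spliced. Of all 63309 introns, 993 were then called as fewer and 57 as more spliced. The median log2 change in the odds of unsplit to split reads was -0.01 over the members and 0.12 over all introns. Separate scaling moved these medians to -0.18 and -0.04, with the members still below all introns. The members' tests were also less precise: the median standard error was 0.68 on the log2 scale, and the median member had 45 unsplit reads over the libraries against 75 for introns of up to 100 nt. With at least 50 split and 50 unsplit reads required, 2 of 488 members were called, 1 in each direction, where 3.98% of all introns were. The calls also changed without knockdown replicate 1, a fit with 1 knockdown sample. There the median log2 odds was 0.08 over the members and 0.26 over all introns. Introns of Lrba (22602 nt) and Ski (27300 nt) had 3.14 and 1.92 in that fit, toward fewer spliced reads.

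**Figure D2:**
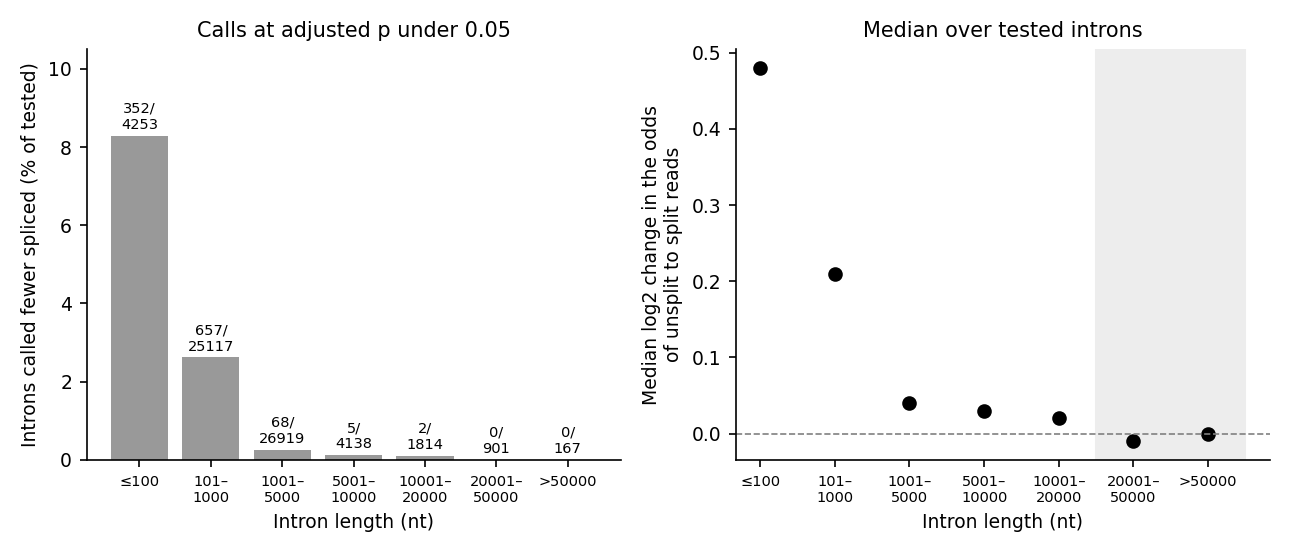
Left, share of tested introns called as fewer spliced in the knockdown (percent, y axis) in 7 length classes (x axis, nt), with called and tested numbers over the bars; right, the median log2 change in the odds of unsplit to split reads in the same classes, with the introns over 20 kb shaded. The share goes from 8.28% for introns of up to 100 nt to 0.11% at 10 to 20 kb and to 0 of 901 and 0 of 167 over 20 kb, and the median from 0.48 to -0.01 and 0.

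At the main read minimum the share called went down with length. Of introns of up to 100 nt 8.28% were called as fewer spliced (352 of 4253), of those of 100 to 1000 nt 2.62%, of 1 to 5 kb 0.253%, of 5 to 10 kb 0.121% and of 10 to 20 kb 0.11% (2 of 1814). The members had the lowest share, next to a class just below them in length with only 2 calls; the difference between classes was not tested. With at least 50 split and 50 unsplit reads the order at the long end was not kept, at 0.222% for 10 to 20 kb and 0.236% for 20 to 50 kb. Among other introns of the members' own genes, 38 of 8179 tested were called as fewer spliced (0.465%, against 1.71% of all introns) and 5 as more spliced. The 38 lay in 11 genes, 24 of them in Hspg2 alone, and had a median length of 155.5 nt, the longest being 5480 nt.

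The members closest to a call went in both directions. Intron 6 of Ptprk (chr10:28230776-28259426, 28651 nt, between coding exons), a receptor tyrosine phosphatase of cell contacts, had 25 and 19 unsplit reads beside 961 and 614 split reads in the controls, and 5 and 8 beside 906 and 740 in the knockdown. Its splicing efficiency was 0.975 and 0.970 in the controls, against 0.995 and 0.989 in the knockdown, with no overlap (log2 odds -1.81, SE 0.541, edgeR adjusted p = 0.0553). Intron 3 of Pkp4 (chr2:59096845-59119561, 22717 nt), a plakophilin of cell junctions, stood the other way round, at 0.966 and 0.974 in control libraries and at 0.913 and 0.919 in knockdown libraries. Its unsplit reads were 22 and 10 in the controls, against 47 and 37 in the knockdown (log2 odds 1.53, SE 0.470, adjusted p = 0.0678). These are the members that the stricter read minimum called.

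Intron 2 of Raly (chr2:154663010-154686365, 23356 nt), which codes for an RNA-binding protein of the hnRNP kind, had 58 and 48 unsplit reads in the controls and 25 in each knockdown library. Its log2 change was -1.30 (SE 0.423, edgeR adjusted p = 0.0986), and all its 2480 split reads were at the 5′ junction, with 0 at the 3′ junction. Intron 1 of Hspg2 (chr4:137196236-137228369, 32134 nt), the gene of the basement membrane proteoglycan perlecan, had 9 and 10 unsplit reads in the controls, against 20 and 15 in the knockdown, at 0.993 and 0.989 against 0.975 and 0.974 (log2 1.52, SE 0.519, adjusted p = 0.132). Intron 7 of Camkmt, a calmodulin methyltransferase gene, rests on few reads: 0 and 1 unsplit in the controls, against 9 and 5 in the knockdown, at efficiencies of 1 and 0.98 against 0.88 and 0.9 (adjusted p = 0.109).

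**Figure D3:**
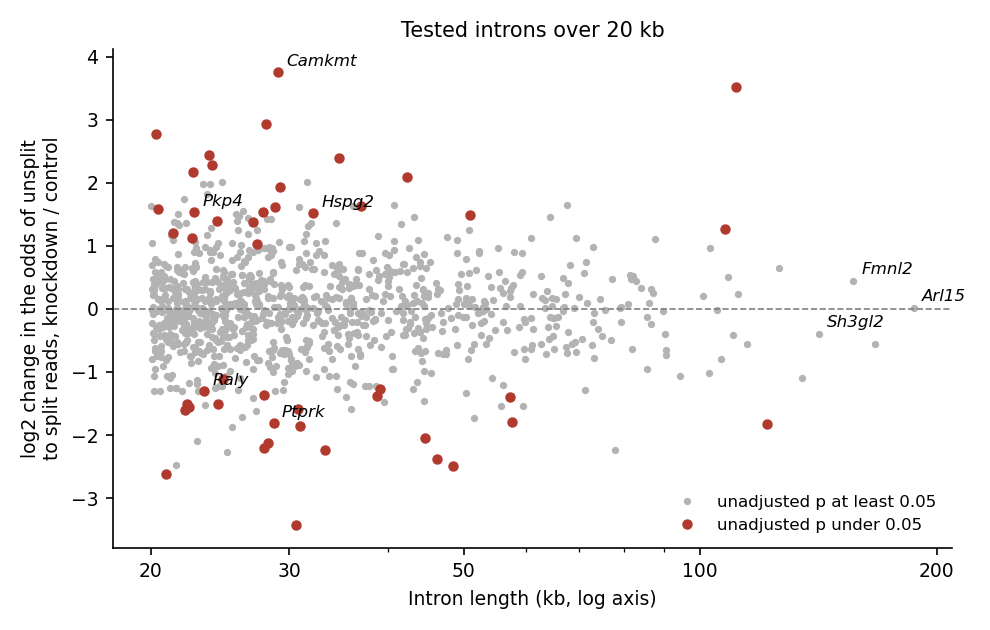
Log2 change in the odds of unsplit to split reads (y axis, above 0 means fewer spliced in the knockdown) against intron length (x axis, kb, log axis) for the 1068 tested introns over 20 kb, 1 point per intron. The points lie on both sides of 0 at all lengths, with 23 introns on each side at an unadjusted p under 0.05 and none past the adjusted threshold in the main scaling; with separate scaling there were 15 above and 42 below, with 2 past it.

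Read as plain levels, 394 members (32.0%) had knockdown and control libraries that did not overlap, against 36.6% of all introns. They divided into 192 lower and 202 higher in the knockdown, or 15.6% and 16.4% of the members, where over all introns 23.6% were lower and 13.0% higher. Among these, with at least 50 junction reads in every library, the widest gap downward was in intron 4 of Fam13c (chr10:70313103-70334715), with 0.934 in each control and 0.917 and 0.717 after knockdown, where knockdown replicate 2 alone stood far down. Intron 3 of the adaptor gene Nck2 was at 0.879 and 0.889 against 0.791 and 0.780, and intron 10 of Dennd1a, which codes for an exchange factor of Rab GTPases, at 0.982 and 0.984 against 0.855 and 0.923. Intron 1 of Fam193a was at 0.851 and 0.850 against 0.755 and 0.762, and intron 8 of Chm, which codes for a Rab escort protein, at 0.880 and 0.907 against 0.849 and 0.756. The adjusted p of these 5 lay between 0.190 and 0.854 (edgeR), so none of them passed the test.

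The 5 introns with the widest gap upward did not pass the test either. Intron 5 of Immp1l, a mitochondrial peptidase gene, was at 0.467 and 0.423 against 0.558 and 0.593, and intron 1 of the ubiquitin ligase gene Rnf220 at 0.618 and 0.523 against 0.642 and 0.736. Intron 1 of Srbd1 was at 0.703 and 0.675 against 0.824 and 0.792, intron 4 of the focal adhesion gene Lpp at 0.841 and 0.885 against 1 and 0.944, and intron 1 of Kirrel at 0.975 and 0.795 against 0.976 and 0.987. Their adjusted p lay between 0.243 and 0.890. The smallest number of junction reads in any library was 52 to 123 for these 5 and 52 to 78 for the 5 with lower values, a low depth for single introns. Split reads of the Rnf220 intron lay almost only at the 3′ junction (173 over the libraries, against 7 at the 5′ junction). For the Srbd1 intron it was 608 against 1. The efficiency of these introns thus combines a spliced 3′ junction with a 5′ junction that had hardly any split reads.

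The 10 best covered members had no call. Intron 1 of Eif3h (chr15:51706021-51728721, 22701 nt), a subunit gene of translation initiation factor eIF3, had at least 3184 junction reads in each library and was spliced at 0.992 and 0.990 in the controls, against 0.991 and 0.990 in the knockdown (log2 odds 0.12, SE 0.340). Intron 5 of the proteasome gene Psmb7 was at 0.993 in both controls and at 0.993 and 0.994 in the knockdown. Intron 1 of the small GTPase gene Cdc42, in the 5′ untranslated region, was at 0.985 and 0.982 against 0.990 and 0.974. The lowest of the 10 best covered was intron 6 of Sae1, a subunit gene of the SUMO-activating enzyme, at 0.928 and 0.909 against 0.943 and 0.922. The log2 odds of all 10 lay between -0.29 and 0.12, with edgeR adjusted p of 0.907 or more.

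The 5 longest members also had no call. Intron 4 of Arl15 (chr13:114104327-114291239, 186913 nt), which codes for an ARF-like small GTPase, was at 0.867 and 0.821 in the controls, against 0.840 and 0.848 in the knockdown (log2 odds 0.02, SE 0.438, edgeR adjusted p = 0.997). Intron 1 of the formin gene Fmnl2 (156543 nt) was at 0.984 and 0.978 against 0.988 and 0.953, intron 2 of the glypican gene Gpc3 (153662 nt) at 1 and 0.976 against 0.989 and 0.974, and intron 1 of Sh3gl2, the endophilin A1 gene (141502 nt), at 0.800 and 0.778 against 0.821 and 0.842. An intron of 166782 nt in a gene named only by its identifier, ENSMUSG00000121513, was at 0.956 and 0.941 against 0.973 and 0.957. Gpc3 had 4 unsplit reads in all and was not tested.

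Unspliced reads were spread unevenly along the members. Summed over the 1233 introns, the 5′ junctions held 13302 and 10220 unsplit reads in the controls, against 12869 and 10189 in the knockdown, the 3′ junctions 9956 and 7268, and 9431 and 8058. The 5′ to 3′ ratio was therefore 1.34 and 1.41 in the controls, against 1.365 and 1.26 in the knockdown, and for shorter introns 0.994 and 0.987, and 0.987 and 0.990. For the 204 members over 50 kb it was 2.44 and 2.52 in the controls, against 2.51 and 2.22 in the knockdown, and for the 1029 of 20 to 50 kb it was 1.22, 1.29, 1.245 and 1.17. Introns of 10 to 20 kb were at 1.01 to 1.045. In all 4 libraries the order of these classes was the same. Between knockdown and control the log2 ratio of the members differed by -0.0614 (0.418 and 0.492 against 0.448 and 0.3385, overlapping groups, exact p = 0.667).

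**Figure D4:**
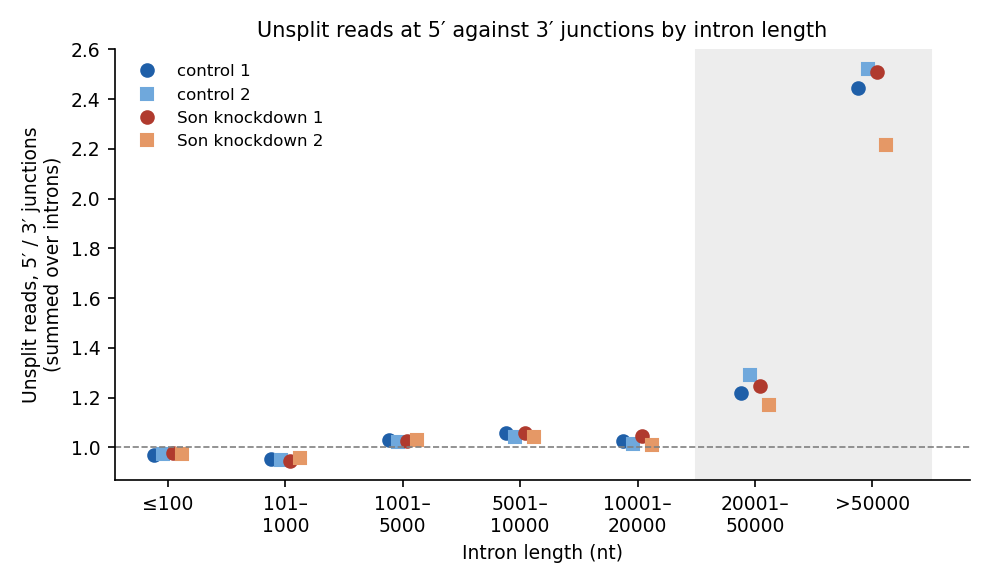
Ratio of unsplit reads at 5′ to those at 3′ junctions (y axis, reads summed over the introns of a class) in 7 length classes (x axis, nt), 1 point per total RNA library, with a dashed line at a ratio of 1 and the introns over 20 kb shaded. Classes up to 20000 nt stay between 0.946 and 1.06, introns of 20 to 50 kb lie at 1.17 to 1.29 and those over 50 kb at 2.22 to 2.52 in control and knockdown libraries alike.

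The ratio differed by position in the transcript, a difference that was not tested. The 686 members that are never a first intron had ratios of 1.60 and 1.75 in the controls, against 1.645 and 1.61 in the knockdown, and the 104 of them over 50 kb had 3.14, 3.26, 3.40 and 3.04. The 448 members that are always first introns had 0.998 and 1.03, and 1.046 and 0.881. Shorter introns of these kinds were also apart, at 1.00 to 1.01 where never first and at 0.801 to 0.866 where always first. Arl15 intron 4 showed the pattern in a single intron, with 40 and 43 unsplit reads at the 5′ junction in the controls, against 53 and 47 in the knockdown, beside 7, 5, 3 and 2 at the 3′ junction. Qk, which codes for the RNA-binding protein Quaking, had 322 against 11 over the libraries in its intron 3, Sae1 523 against 85 in intron 6 and Sh3gl2 154 against 3 in intron 1. The reverse also occurred: intron 2 of the deubiquitinase gene Usp9x had 39 against 454, intron 1 of Cdc42 1 against 128 and intron 12 of the acetyltransferase gene Kat6b 172 against 345. The 10 members with most unsplit reads held 7.8% of them, 7 with more at the 5′ side, and without those 10 the log2 ratio was 0.394 and 0.471 in the controls, against 0.4435 and 0.316 in the knockdown.

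Tested apart at the main read minimum, neither junction had an adjusted call among the members, like their sum. The unadjusted counts were not alike. At the 5′ junction 0 of 754 tested members were called, against 0.464% of all introns (edgeR). At an unadjusted p under 0.05, 15 were fewer and 17 more spliced, against 3258 and 805 of all 50021 introns. At the 3′ junction 0 of 766 were called, against 0.614% of all. Unadjusted, 19 were fewer and 8 more spliced, against 3639 and 842 of all 52435 introns. DESeq2 called 0 members at either junction, and of all introns only 19 at the 5′ and 43 at the 3′ junction. Unsplit reads alone, tested as counts with edgeR, were called for 0 of 403 members at the 5′ junction (0.376% of all introns). At the 3′ junction it was 0 of 279 (0.584% of all). Unadjusted, 9 were higher and 12 lower at the 5′ junction, against 1387 and 836 of all 26359 introns. At the 3′ junction 0 were higher and 8 lower, against 1458 and 812 of all 26024. DESeq2 called 0 members at either junction. The median log2 change of unsplit reads was -0.11 at either junction in the members and -0.01 over all introns. As a share of all unsplit reads, the members' reads went from 1.354 and 1.30% in the controls to 1.253 and 1.21% in the knockdown, without overlap (difference -0.0977 percentage points, exact p = 0.333).

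In some members split reads were found at 1 junction and hardly at the other. In 73 members (5.92%, against 3.19% of shorter introns) the split reads of the weaker junction were under 10% of those of the stronger. The 5′ junction was the weaker in 58 of them, 38 of which are a first intron in at least 1 transcript, and the 3′ junction in 15. Intron 1 of Actn1, the alpha-actinin 1 gene, had 1 split read at its 5′ junction and 4457 at its 3′ junction over the libraries, intron 1 of the adaptor gene Gab1 0 and 3343, intron 1 of Ube2n 4 and 2937, and intron 2 of Jarid2 12 and 2971. The opposite held for intron 9 of the exocyst gene Exoc4, with 1710 and 0, as for Raly. Raly is described above. Gab1 was at 0.880 and 0.870 in the controls, against 0.891 and 0.847 in the knockdown, Jarid2 intron 2 at 0.863 and 0.856 against 0.869 and 0.870 (edgeR adjusted p = 0.992 and 0.982). Split reads were 0 in all libraries for 3 members, among them Gm49003 intron 2 with 652 unsplit reads in all. Keeping the 1103 members with split reads within 2-fold of each other, mean efficiency was 0.920 and 0.913 in the controls, against 0.920 and 0.910 in the knockdown.

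Spliced reads across the members changed in few of them. By the edgeR test of split reads at the 5′ junction 3 of 1163 members were called, where 2.64% of all introns were, 0.326% upward and 2.31% downward. Intron 1 of Hspg2 fell from 629 and 436 reads in the controls to 395 and 277 in the knockdown (log2 -0.62, SE 0.140, adjusted p = 0.00486). Intron 4 of Wwp2, a HECT-type ubiquitin ligase gene, fell from 263 and 180 to 185 and 96 (log2 -0.63, SE 0.182, adjusted p = 0.044). Intron 6 of Hsf2bp (chr17:32206426-32226649), whose product binds the heat shock factor HSF2, rose from 505 and 324 to 632 and 521 (log2 0.55, SE 0.138, adjusted p = 0.0151). In the shallower replicate 2 libraries the raw reads are lower in both groups, and the test scales for this. Single libraries decided the count: it changed with each library left out, and so did the count over all introns. Such fits leave 1 sample in a group, so their counts are not given. DESeq2 called Hspg2 alone. As a share of all split reads the members went from 1.006 and 0.986% to 1.039 and 1.035%, without overlap (difference 0.0408 percentage points, exact p = 0.333).

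Summed over a gene's introns, spliced reads of 24 of 917 tested host genes rose (2.62%, edgeR) and those of 15 fell (1.64%), where 1.96% of all genes rose and 6.76% fell. Whether fewer cells or less RNA per cell lies behind a lower level cannot be told apart in bulk samples. The largest fall was in Acsf2, an acyl-CoA synthetase gene, from 68.3 and 60.0 CPM in the controls to 29.2 and 33.7 in the knockdown (log2 -1.06, SE 0.123, adjusted p = 4.76e-06). Ppp1r37, which codes for a subunit that restrains protein phosphatase 1, fell from 50.5 and 51.3 to 24.7 and 30.3 CPM (log2 -0.92, SE 0.131, adjusted p = 5.8e-05). Sgsm2, a modulator of small G proteins, fell from 35.3 and 36.6 to 24.1 and 18.5 CPM (log2 -0.76, SE 0.147, adjusted p = 0.00141). The control and knockdown libraries of these genes did not overlap.

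The fitted rises reached less far than the falls. Afg1l, which codes for a mitochondrial ATPase, rose from 20.2 and 22.6 to 30.2 and 37.3 CPM (log2 0.63, SE 0.149, adjusted p = 0.00793), Snx29, a sorting nexin gene with 5 members, from 23.0 and 20.2 to 33 and 31.0 CPM (log2 0.54, SE 0.142, adjusted p = 0.0176), and D430042O09Rik from 22.2 and 25.0 to 33.9 and 35.4 CPM (log2 0.54, SE 0.138, adjusted p = 0.0153). The other rises had log2 values of 0.24 to 0.51 and the other falls -0.62 to -0.30. None of the called genes rose by 2-fold and 1 fell by as much. Leaving out a library changed these counts, among host genes and among all genes tested. Such fits leave 1 sample in a group, so their counts are not given. Under the alternatives run on the same host genes (other scaling, filter or tool, the block and each library left out), 6 genes stayed called, all of them falls: Acsf2, Hspg2, Myo9b, Ppp1r37, Sgsm2 and Wwp2. Their members are all shorter than 50 kb.

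**Figure D5:**
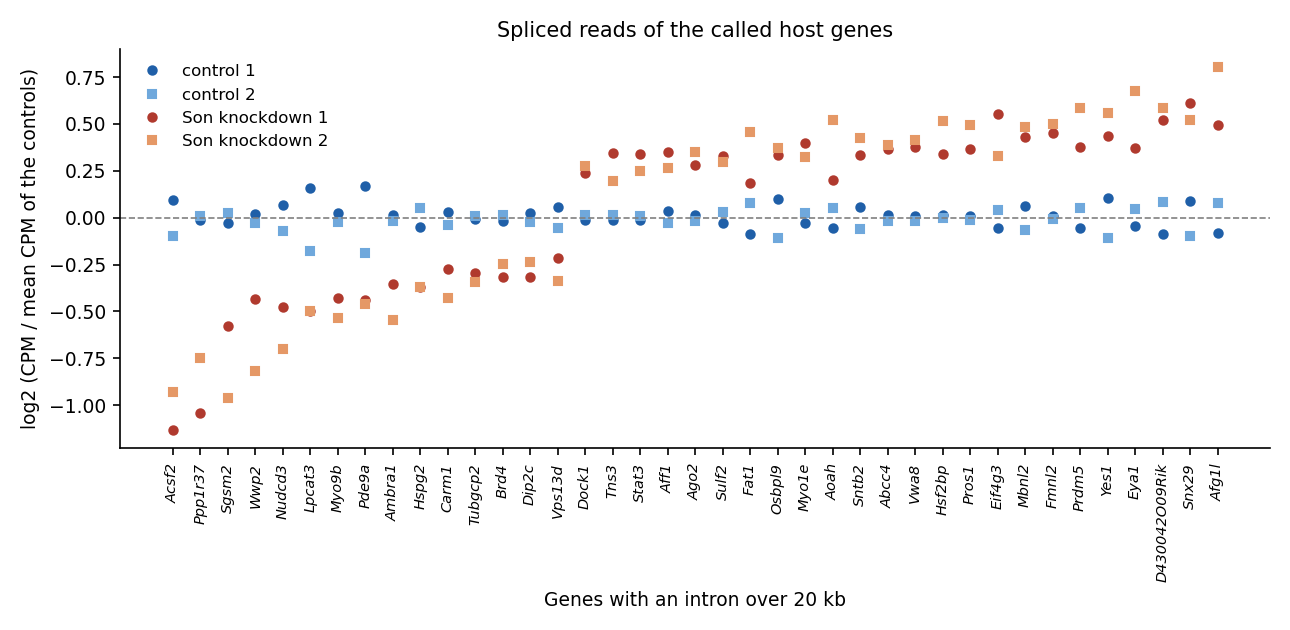
Spliced reads of the 39 host genes called (x axis, ordered by fitted change) as log2 of CPM over the mean CPM of the 2 controls (y axis), 1 point per total RNA library. The knockdown points of 15 genes lie below and those of 24 above the controls, with Acsf2 at the lower and Afg1l at the upper end of the fitted changes.

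Some of the genes that fell had calls at other, shorter introns. Of the 15 fallen host genes, 5 had another intron called as fewer spliced, and of the 24 risen ones 0. Over all 864 host genes with other introns it was 11, and the difference was not tested. Gene calls and intron calls share the 5′ split reads, so they are not independent of each other. In Ppp1r37 the mean efficiency of the other introns went from 0.863 and 0.845 in the controls to 0.628 and 0.671 in the knockdown, with 3 of 8 tested introns called, and its 24343 nt member was at 0.524 and 0.636 against 0.404 and 0.400 (adjusted p = 0.804, edgeR). In Acsf2 the other introns went from 0.977 and 0.972 to 0.917 and 0.908, with 2 of 5 called, and its 28414 nt member was at 0.966 and 0.825 against 0.753 and 0.844. In Hspg2 24 of 90 other introns were called, at a mean of 0.969 and 0.964 against 0.948 and 0.933. In Myo9b, an unconventional myosin gene, 2 of 34 were called, and the 23988 nt member was at 0.866 and 0.819 against 0.850 and 0.812. Sgsm2 had 0 of 14 called, though the mean of its other introns was 0.783 and 0.770 against 0.603 and 0.454.

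Genes of 7 functional sets were followed through their very long introns. In all 7 the edgeR splicing test called 0 members (1.76% of all introns were called); unadjusted counts were 0 in 5 sets. Host gene calls in the sets are to be read against the 1.96% of all genes that rose and the 6.76% that fell. Adhesion and polarity genes had 19 members in 14 of 30 genes, at a median efficiency of 0.95 in the controls and 0.956 in the knockdown, with a median log2 odds change of -0.39. The median was -0.01 over all members and 0.12 over all introns, and 2 members had an unadjusted p under 0.05, both with a higher spliced share. Intron 2 of the E-cadherin gene Cdh1 (44593 nt) was at 0.973 and 0.968 against 0.978 and 0.985, and intron 1 of the protocadherin gene Fat1 at 0.972 and 0.962 against 0.968 and 0.963. Intron 4 of the polarity gene Dlg1 was at 0.960 in both controls and at 0.972 and 0.961 in the knockdown. Spliced reads of Fat1 rose from 626 and 702 to 754 and 911 CPM (log2 0.31, SE 0.0835, edgeR adjusted p = 0.0223), 1 of 14 genes tested in that set, with 0 falling.

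Cytoskeleton and motor genes had 28 members in 12 of 30 genes, with a median change of 0.01. Fmnl2 was the 1 host gene called, from 91.8 and 90.9 to 125 and 129 CPM (log2 0.45, SE 0.0902, edgeR adjusted p = 0.00191). Intron 2 of the nonmuscle myosin gene Myh10 was at 0.992 and 0.993 against 0.990 and 0.968 (log2 1.33, SE 0.714, edgeR adjusted p = 0.571), where knockdown replicate 2 differed from the others. Intron 6 of the dystrophin gene Dmd was at 0.974 and 0.977 against 0.997 and 0.965, intron 1 of the spectrin gene Sptbn1 at 0.959 and 0.976 against 0.960 and 0.982, and intron 1 of the formin gene Diaph3 at 0.939 and 0.951 against 0.938 and 0.93. Genes of GTPase regulation and vesicle transport had the most members, 48 in 19 of 30 genes, at medians of 0.958 and 0.943 and a log2 change of 0.11. Of their 19 host genes 2, Dock1 and Snx29, rose in spliced reads and 1, Vps13d, fell. Exoc4 intron 9 was at 0.844 and 0.800 against 0.822 and 0.791, and intron 35 of Vps13b at 0.956 and 0.940 against 0.944 and 0.961. Intron 6 of Agap1 was at 0.953 and 0.959 against 0.959 and 0.924, and intron 7 of Ap3b1 at 0.937 and 0.922 against 0.940 and 0.929.

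Chromatin and transcription genes had 24 members in 19 of 42 genes, with a median change of 0.07 and 0 of 19 host genes called. Intron 4 of Jarid2, a partner of the Polycomb complex PRC2, was at 0.952 and 0.951 against 0.952 and 0.943, and intron 6 of the forkhead gene Foxp1 at 0.95 and 0.982 against 0.959 and 0.958. Intron 1 of the coactivator gene Ncoa3 was at 0.977 and 0.970 against 0.975 and 0.968, and intron 1 of Zfp462 at 0.939 and 0.953 against 0.901 and 0.943. Kinase and phosphatase genes had 18 members in 14 of 39 genes, with a median change of 0.13 and 0 of 14 host genes called. Intron 1 of the diacylglycerol kinase gene Dgkh was at 0.980 and 0.986 against 0.971 and 0.978, and intron 1 of Map4k3 at 0.980 and 0.961 against 0.976 and 0.980. Of the Tousled-like kinase genes, intron 1 of Tlk1 was at 0.981 and 0.921 against 0.941 and 0.958 and intron 2 of Tlk2 at 0.905 and 0.864 against 0.953 and 0.878. Ubiquitin system genes had 11 members in 10 of 30 genes, with a median change of -0.11, and Wwp2 was the 1 host gene called, from 156 and 151 CPM to 114 and 87.4 (log2 -0.62, SE 0.104, edgeR adjusted p = 0.000339). Intron 2 of the ubiquitin ligase gene Huwe1 was at 0.947 and 0.934 against 0.928 and 0.913, both knockdown values below both controls (adjusted p = 0.827). Intron 1 of Wwp1 was at 0.845 and 0.830 against 0.887 and 0.874.

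RNA-binding and decay genes had 15 members in 10 of 30 genes, with a median change of -0.17 and 0 of 10 host genes called. Intron 6 of Msi2, the Musashi gene, is 110000 nt long and was at 0.943 and 0.947 against 0.954 and 0.963 (log2 -0.42, SE 0.466, edgeR adjusted p = 0.916). Qk intron 3 was at 0.948 and 0.935 against 0.95 and 0.942, and intron 1 of the splicing regulator gene Rbfox2 at 0.965 and 0.943 against 0.926 and 0.943.

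Long reads gave a separate look at the host genes, with 1 library per group and so no test. The description of the control library names the knockdown sample as its starting material, while its title and treatment say control. It held 217 Son reads of 3080426 and the knockdown library 37 of 1874851. The median log2 ratio of knockdown to control (CPM with 0.5 reads added, at least 20 reads over both libraries) was -0.034 over 745 host genes, -0.018 over 8165 genes with listed introns and -0.011 over all 9616 genes. With 5 reads added in place of 0.5 the host genes' median was 0.0522, so its sign depended on that choice. That value is given for the host genes only and was not compared with other genes. The host genes called in total RNA as falling had a median of -0.672 in the long reads, with 12 of 13 lower, and those called as rising 0.15, with 13 of 22 higher. Acsf2 had 12 long reads in the control and 2 in the knockdown library, Ppp1r37 21 and 4, Wwp2 105 and 34, and Hspg2 170 and 56. Transcripts annotated as retained introns held 13.9% of the host genes' long reads in the control (95% Wilson interval 13.6 to 14.1) and 14.4% in the knockdown (14.1 to 14.7). In other genes with listed introns they held 6.73% (6.69 to 6.76) and 7.18% (7.13 to 7.22). These intervals cover counting error only. Such transcripts can retain any intron of the gene, so these shares do not measure retention of the introns over 20 kb.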

How the data were processed

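The total RNA tables were made by the authors with SPLICE-q, per the labels, and what the authors deposited are read counts per junction, split or unsplit, with a score that is the fraction of split reads (checked on the tables: the score follows from the 4 counts, and every listed junction has at least 10 reads). The long-read tables hold deposited counts per transcript. GRCm39, SAMtools and minimap2 are named without a role in the submitters' processing notes; whether counting used strand is not given in the sources used here. Coordinates are printed as in the tables. GENCODE M21 (GRCm38) served only for names, transcript structure and exon sequences: 99.91% of 68093 introns matched it in length and 2.53% in start, so no sequence was read by coordinates.

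Splicing was tested with edgeR's quasi-likelihood test (edgeR 4.0.16, R 4.3.3): the odds of unsplit to split reads, with a term per library, for introns with at least 10 split and 10 unsplit reads, and positive values for fewer spliced reads in the knockdown. A read that spans an intron counts at both junctions, so the sum overstates separate reads; each junction was also tested alone. Split reads, unsplit reads and spliced reads summed per gene were tested as counts with TMM scaling and edgeR's expression filter. P-values were adjusted (Benjamini-Hochberg) over all introns or genes. Values per library were compared with exact two-sided permutation tests (scipy 1.17.1), 6 such comparisons over libraries and 7 tests across features. DESeq2 1.42.0 and the other alternatives are given in the closing section. The tests were tried on simulated data.

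The length limit uses no measured value, but listing in all 4 libraries does, since every listed junction has at least 10 reads. The length rule and the gene lists were chosen with earlier results of these data known. Named by rule: called introns, the 5 largest falls and 5 largest rises with groups that do not overlap and at least 50 reads per library, the 5 longest, the 10 best covered, the 3 largest rises and 3 largest falls of host genes, and the best covered genes of each list. Other named introns and genes (closest to a call, called in split reads only, uneven junctions, other called host genes) were chosen after their values were seen. Some members that the rule names are not reported here. The replicate numbers come from the titles. The 2 controls differed by more than sampling noise (chi-square per intron 1.81), as did the 2 knockdown libraries (4.01).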

Additional observations from a re-analysis of the deposited data

How the results depend on the processing

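Most introns over 20 kb had few unsplit reads, which limits the single-intron tests. The change in mean efficiency of the members was -0.00679 to 0.00501 leaving out a library, and their genes' long-read median was 0.0522 with 5 reads added. The difference between the members and shorter introns was 0.0101 for introns with at least 50 reads, 0.00779 with medians and 0.00657 with pooled reads; against introns of 10 to 20 kb it was 0.000922 and against 1 to 20 kb 0.0039, both chosen after seeing the data. Against other introns of the same genes it was 0.00314 for introns over 10 kb, 0.00299 with at least 50 reads, 0.00347 with medians and 0.00348 with pooled reads. The share of split reads changed by 0.126 percentage points for introns over 10 kb and 0.00398 over 50 kb, and that of unsplit reads by -0.211 and -0.0184. The count of called introns was 2 with at least 50 split and 50 unsplit reads and 2 with separate scaling (Ptprk and Raly). For introns over 10 kb it was 3. It also changed without knockdown replicate 1, a fit with 1 knockdown sample. At the 3′ junction alone it was 1 with the stricter minimum (Ski) and 1 over 10 kb, and for unsplit reads at the 3′ junction 1 over 10 kb. Of all 17530 introns tested at the 3′ junction with the stricter minimum, 685 were called as fewer and 2 as more spliced. Split-read calls numbered 1 with DESeq2, 13 over 10 kb, 0 over 50 kb and 0 to 43 leaving out a library. Host gene calls numbered 96 over 10 kb, 5 over 50 kb and 7 to 164 leaving out a library. The cause of these shifts was not tested, except that other length limits hold other numbers of introns and genes. With the replicate block the splicing test called 3 introns (Ptprk, Pkp4 and Raly). Of all 63309 introns it then called 1580 as fewer and 46 as more spliced. Host genes with the block numbered 33 higher and 16 lower, where 254 of all 9474 genes were higher and 746 lower. Samples of the same number were not shown to be paired (correlation of deviations 0.047 for odds over 19552 introns and -0.003 for split reads). No listed intron contained another, so that alternative left out only introns listed under more than 1 gene.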
